A study of Mus musculus with 10 samples.

Results

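The clustered core and linker histone genes code for most of the histone protein that packages newly copied DNA. Members were taken by rule as every gene of the deposited matrix whose GENCODE M21 symbol begins with Hist1h, Hist2h, Hist3h or Hist4h and whose type is protein-coding. The rule found 65 genes among 45232 entries, of which 6 code for the linker histone H1, 18 for H2A, 16 for H2B, 12 for H3 and 13 for H4. The Hist1 cluster on chromosome 13 of GRCm38 held 52 of them, the Hist2 cluster on chromosome 3 held 10, the Hist3 cluster on chromosome 11 held 2, and *Hist4h4* lay on its own on chromosome 6. GENCODE M21 lists 67 such genes, and *Hist1h2bm* and *Hist1h2bh* were not analysed here.

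RNA came from NIH3T3 cells, an immortalized mouse fibroblast line, kept for 60 h in medium with 0% FCS to bring them into quiescence. By flow cytometry, the paper reports slightly more S and G2/M cells after starvation in lines with no or mutated Lin37. Whether the cells behind these libraries differed in this way was not tested. All cells carried a knockout of *Lin37* made with a Cas9 nickase. The InDels lay at exon 4 in 1 clone and at exon 6 in another, so that each mutation was studied in 1 clone. KO cells also carried luciferase on an inducible episome, which stays apart from the chromosomes as a plasmid, and rescue cells carried the same kind of episome with wild-type Lin37. The exon 4 clone had 2 libraries of KO and 2 of rescue cells, and the exon 6 clone had 3 of each, of which the labels call library 3 a technical replicate of library 2. Total RNA was depleted of rRNA and not selected for poly(A) tails. The comparison asks which histone genes differ in serum-starved cells without Lin37 protein from the same cells with Lin37 put back.

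As background, histones H2A, H2B, H3 and H4 form the core around which DNA is wound, and H1 binds the DNA where it enters and leaves this core. The clustered genes have many near-identical copies and are transcribed mainly in S phase, when new DNA needs histones, and at low levels in resting cells. Their mRNAs typically end in a stem-loop in place of a poly(A) tail, and the stem-loop binding protein SLBP holds this end during processing, translation and decay. Lin37 belongs to the MuvB core of DREAM, a complex known for repressing cell cycle genes in quiescence.

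The files held RPKM, which are read numbers divided by the length of the gene and the total of the library, and no counts. Low values were whole multiples of the smallest step in 12.9% to 22.2% of cases (within 0.05), so that whole reads were not recovered and depth was unknown. Libraries were put on 1 scale with a factor each, taken as the median of ratios to the geometric means of 8523 genes, and all levels given are these rescaled RPKM. A log2 change is the KO mean minus the rescue mean of log2(rescaled RPKM + 0.5), and this scale understates the change of genes at low levels. The technical libraries 2 and 3 of the exon 6 clone were averaged into replicate 2, which left 4 KO and 4 rescue replicates. A gene was called where the adjusted p of limma was under 0.05.

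*Lin37*, the mutated gene, was measured first. In the exon 4 clone it lay at 0.285 and 0.284 RPKM in the KO libraries and at 2.54 and 2.12 RPKM in the rescue libraries. In the exon 6 clone it lay at 0.417, 0.279 and 0.268 RPKM in the KO libraries and at 4.92, 5.11 and 4.41 RPKM in the rescue libraries. Every KO library was below every rescue library. Its log2 change was −2.25 (SE 0.17, adjusted p = 0.000293, lower in KO in 4 of 4 pairs), and whether reads came from the episome was not tested.

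The libraries differed in ways that moved with the groups. The rescaling factor was higher in the KO library than in the same-numbered rescue library in all 5 such pairs, with exon 4 KO at 1.90 and 0.601 and its rescue at 0.722 and 0.377, and with exon 6 KO at 2.40, 0.896 and 2.70 and its rescue at 1.06, 0.324 and 1.73. The most abundant entry of a library (Gm10800, or CT010467.1 in exon 6 KO libraries 1 and 3) held less of the summed RPKM in KO than in rescue in the same 5 pairs. In order of library number, the KO libraries of exon 4 gave it 18.9% and 34.7% and the rescue libraries 35.5% and 41.0%. Those of exon 6 gave it 17.1%, 32.6% and 17.6% for KO, against 35.5%, 44.6% and 23.8% for rescue. Summed histone levels also differed between libraries of the same replicate. In exon 6 KO, library 3 held 301 RPKM of histone transcripts and library 2 held 201 RPKM, and in exon 6 rescue library 3 held 227 RPKM and library 2 held 112 RPKM. The median log2 difference of library 3 minus library 2 over the 54 members tested below was 0.45 in KO, with 48 members higher in library 3, and 0.84 in rescue, with 49 higher. Over all 16866 genes tested it was −0.02 and −0.06. The members' median difference between technical libraries was thus larger than their median KO change given below (0.35), although it was small in KO for summed H3 transcripts, with a ratio of library 3 to library 2 of 1.12 (2.35 in rescue). The part of library preparation and composition in the histone changes was not tested.

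**Figure D1:**
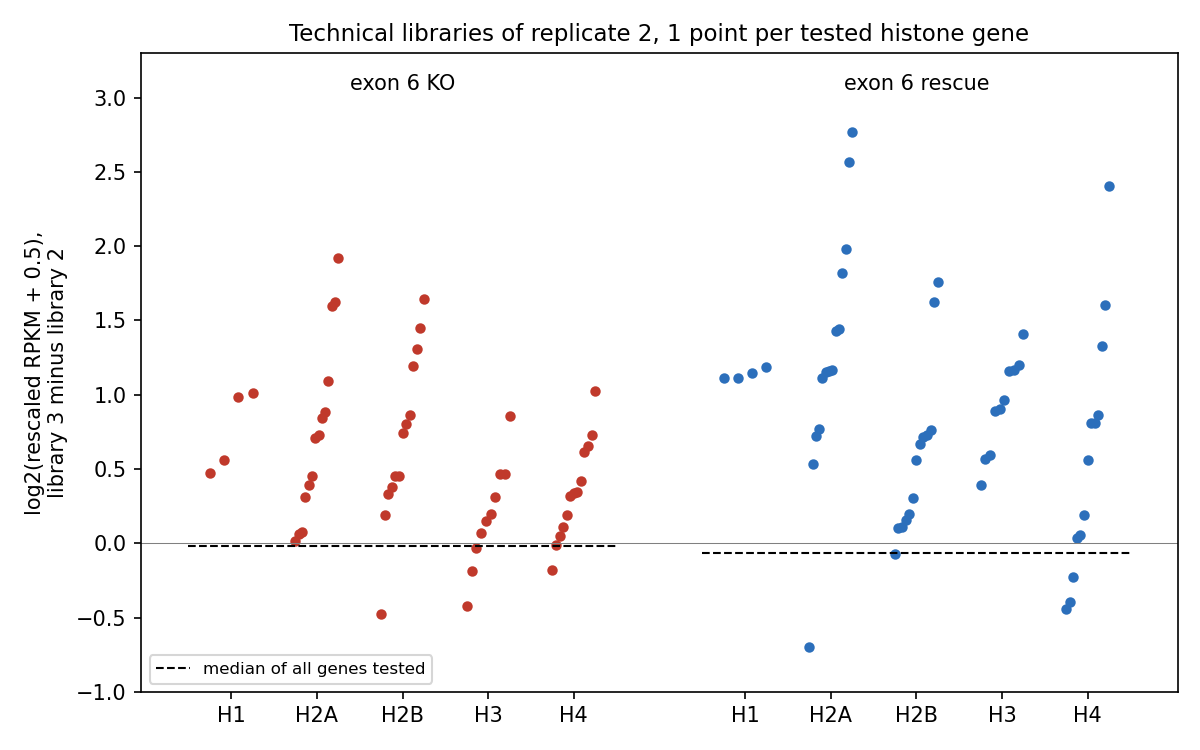
Log2 difference of library 3 minus library 2 of exon 6 replicate 2, on the log2(rescaled RPKM + 0.5) scale, with 1 point per tested histone gene, by class, in KO (red) and rescue (blue). The dashed lines are the medians of all 16866 genes tested, −0.02 and −0.06, and most points lie above them.

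Fibroblast markers were in sum far above those of other cells. The 8 fibroblast markers summed to between 470 and 829 RPKM per library, with *Col1a1*, a chain of collagen I, the most abundant at a mean of 199 RPKM. The 9 markers of other cells (epithelial, endothelial, blood, muscle and germ cells) summed to between 0.869 and 1.59 RPKM. *Cd68* at a mean of 0.938 RPKM was the most abundant of the 9, and none of them was listed at 0 in every library. The fibroblast marker *Thy1* was low in the exon 4 clone, at 0.531 and 1.20 RPKM in KO and 1.00 and 1.83 RPKM in rescue. In exon 4 KO library 1 it lay below *Cd68* (0.956 RPKM). Exon 6 libraries had *Thy1* at 7.41 to 9.49 RPKM. By limma, 0 of 8 fibroblast markers and 0 of the 2 tested markers of other cells were called over both clones (0 and 0 at an unadjusted p under 0.05). Within the exon 6 clone *Cd68* was not called either, at a log2 change of 0.49 (limma adjusted p = 0.152), but was 1 of 1 tested marker of other cells higher at an unadjusted p under 0.05.

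Histone H4 genes held the largest summed level in each of the 10 libraries and H2A or H2B genes the smallest. Summed over all members, histone transcripts came to 154 and 131 RPKM in exon 4 KO, 143 and 92.7 RPKM in exon 4 rescue, 211, 201 and 301 RPKM in exon 6 KO, and 152, 112 and 227 RPKM in exon 6 rescue. H4 genes made up 38.0% to 53.9% of this sum in KO libraries and 50.1% to 63.3% in rescue libraries. H3 genes made up 17.3%, 17.3%, 22.6%, 27.7% and 20.6% in the KO libraries and 13.2%, 7.55%, 10.9%, 11.9% and 13.8% in the rescue libraries. The H3 shares of KO and rescue libraries did not overlap, whereas those of H4 did.

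**Figure D2:**
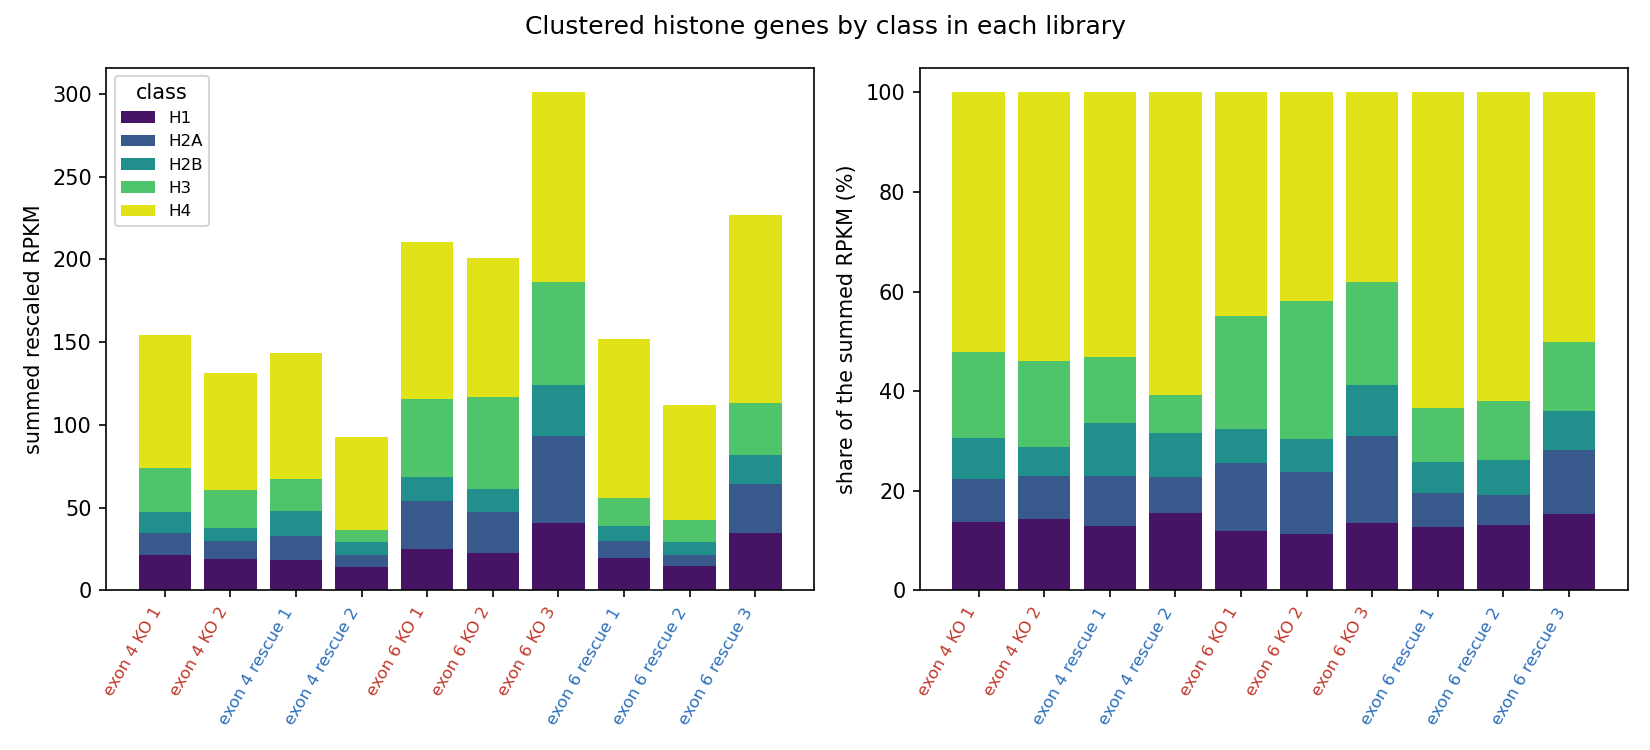
Summed rescaled RPKM of the clustered histone genes by class (left) and the share of each class in percent (right), in each of the 10 libraries, with KO names in red and rescue names in blue. H3 (green) made up 17.3% or more in each KO library and 13.8% or less in each rescue library.

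Members of a class differed widely in level. The highest were *Hist1h4d* at a mean of 28.9 RPKM over the 8 replicates in H4, *Hist1h1e* at 10.9 RPKM in H1, *Hist1h3h* at 4.45 RPKM in H3, *Hist1h2ai* at 3.44 RPKM in H2A and *Hist1h2bg* at 3.33 RPKM in H2B. At the other end, 7 members were listed at 0 in all 10 libraries. These were *Hist1h1a*, the testis form *Hist1h2aa*, and *Hist2h2aa1*, *Hist2h2aa2*, *Hist2h2bb*, *Hist2h3b* and *Hist2h3c1* of the Hist2 cluster. For each of the 5 from Hist2, every stretch of 100 bases of its transcript was also found in another annotated gene, so a listed 0 there need not mean absence of the transcript.

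Gene ends and shared sequence set what the levels can mean. The histone stem-loop was searched for by its usual pattern within 100 bases after the stop codon in the M21 transcripts. It was found in 44 of the 49 members with at least 40 annotated bases there, and in 65 of 20889 protein-coding genes (0.311%), 21 of them outside the members. The forms are shown because they separate most H4 genes from the other classes, with the paired stem bases in capitals and the loop in lower case. Form A was held by 24 members of classes H1, H2A, H2B and H3, form B by 7 H4 genes, form C by 6 genes including *Hist1h3e*, and form D by *Hist1h4a* alone.
Form A: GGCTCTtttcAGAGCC
Form B: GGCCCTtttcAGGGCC
Form C: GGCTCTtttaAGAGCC
Form D: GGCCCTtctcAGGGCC

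The members without it among these 49 were *Hist1h1a* and the H2B genes *Hist1h2bc*, *Hist1h2bq*, *Hist1h2br* and *Hist2h2be*, and the annotation holds no 3′ end for *Hist1h2ai*, *Hist1h3h* and *Hist1h3i*. The 4 H2B genes, named after their values were seen, had log2 changes of −0.07, −0.11, −0.09 and −0.23, and none was called. Tested H2B genes with the stem-loop ran from −0.14 for *Hist1h2be* to 0.31 for *Hist1h2bk*, and none of these was called either. A relation to the stem-loop was not tested.

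Many members could not be told apart from other genes by short reads over part of their length. Some stretch of 100 bases was identical to another gene in 59 of the 65 members, and over 50% of stretches were in 28 members. These counts include genes annotated over the same bases as well as copies. *Hist2h2ab* shared 59.7% of its stretches with any gene, mostly the overlapping Gm15444, but 1.45% with other members. The shared part was 92.0% for *Hist1h3h*, 88.4% for *Hist1h2ai*, 68.6% for *Hist1h3i*, 61.6% for *Hist2h3c2*, 56.6% for *Hist1h3b* and 31.8% for *Hist1h4a*, and 0% for *Hist1h4d* and *Hist1h1b*. How the counting divided reads of identical stretches is not given in the sources used here. Values of single members, and their counts below, are therefore uncertain where copies share sequence.

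Promoters were searched for known motifs of histone and cell cycle genes. RefSeq promoters of GRCm38.p6 were matched to 60 of the 65 members, and the 250 bases before the start were searched on both strands. The octamer ATTTGCAT, bound by Oct-1, was found in 12 of the 60 members, 7 of 18 H2A and 5 of 14 H2B genes, and in 1.57% of 26966 other promoters. The CCAAT box was found in 49 members (81.7%, others 34.4%), that is in every H1, H2A and H2B gene, 8 of 10 H3 genes and 3 of 12 H4 genes. The TATA box TATAAA was found in 29 members (48.3%, others 12.9%). TTTGAA, the cell cycle genes homology region at which MuvB is known to bind, was found in 25 (41.7%, others 16.2%). By class, TTTGAA was in 10 of 14 H2B, 9 of 18 H2A, 2 of 6 H1, 2 of 10 H3 and 2 of 12 H4 genes. The other form of this region, TTCGAA, was found in 1 member (others 1.34%). The E2F motif TTCCCGC was found in 5 members, all H4 (others 3.83%), and the form TTCGCGC in 9 members, 5 H2A and 4 H2B (others 1.26%).

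For each class with a called member, the 150 bases before the start are shown for the called member with the largest log2 change and for the uncalled member of the highest mean level. Capitals mark the searched motifs on either strand. *Hist1h2ai* is at chr13:21716262-21716411 (plus strand), *Hist2h2ac* at chr3:96220881-96221030 (minus), *Hist2h3c2* at chr3:96239128-96239277 (minus), *Hist1h3e* at chr13:23562386-23562535 (minus), *Hist1h4a* at chr13:23761250-23761399 (minus) and *Hist1h4d* at chr13:23581418-23581567 (plus). *Hist1h4a* held the E2F motif 3 times and *Hist1h4d* held it once. The stretch of *Hist2h3c2* held none of the searched letters, which says nothing of the factors that bind there.
Hist1h2ai: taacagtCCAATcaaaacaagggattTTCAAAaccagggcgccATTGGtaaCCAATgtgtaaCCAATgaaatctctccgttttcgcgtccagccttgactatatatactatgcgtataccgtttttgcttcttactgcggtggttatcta
Hist2h2ac: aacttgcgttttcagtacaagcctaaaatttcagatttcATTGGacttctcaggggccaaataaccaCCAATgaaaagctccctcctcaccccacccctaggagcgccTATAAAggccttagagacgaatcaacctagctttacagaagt
Hist2h3c2: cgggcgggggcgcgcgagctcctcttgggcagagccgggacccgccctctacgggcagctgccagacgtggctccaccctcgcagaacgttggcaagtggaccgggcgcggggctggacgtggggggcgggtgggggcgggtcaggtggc
Hist1h3e: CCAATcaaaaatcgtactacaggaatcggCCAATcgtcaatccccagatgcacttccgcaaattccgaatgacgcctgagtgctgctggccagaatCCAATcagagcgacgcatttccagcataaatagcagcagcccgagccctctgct
Hist1h4a: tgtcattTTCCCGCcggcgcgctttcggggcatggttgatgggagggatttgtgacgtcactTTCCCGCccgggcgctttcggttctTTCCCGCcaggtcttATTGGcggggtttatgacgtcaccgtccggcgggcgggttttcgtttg
Hist1h4d: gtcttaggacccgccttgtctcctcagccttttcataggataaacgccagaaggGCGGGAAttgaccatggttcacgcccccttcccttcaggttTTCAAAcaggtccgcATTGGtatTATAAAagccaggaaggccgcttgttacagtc

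Over both clones, 6 of the 54 members with enough signal to be tested (a mean of at least 0.1 RPKM) rose in KO cells and 0 fell. Background was 1.61% of 16866 genes called higher and 0.083% called lower. At an unadjusted p under 0.05, limma gave 15 members higher and 0 lower, and 854 and 628 of the 16866 genes. The called members were the H3 genes *Hist2h3c2*, *Hist1h3b*, *Hist1h3h* and *Hist1h3i*, the H2A gene *Hist1h2ai* and the H4 gene *Hist1h4a*. Called and uncalled members together lay mostly on the positive side, with 45 of 54 log2 changes above 0 against 41.0% of all genes, and a median of 0.35 against −0.03. This median was 0.23 without exon 6 rescue replicate 1 and 0.57 without exon 4 rescue replicate 1. In all 4 pairs, 16 of the 54 members were higher in KO (29.6%), against 8.96% of all genes. A change in the number of cells that make a transcript and a change in transcript per cell cannot be told apart in these bulk samples.

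Fewer members were called in 7 of the 8 fits that left out a replicate, while all 6 kept positive log2 changes in 21 of 21 alternatives. Leaving out exon 6 KO replicate 1 or exon 6 KO replicate 2 left 0 members called by limma (16 and 13 higher at an unadjusted p under 0.05), where genes called higher in all went from 271 to 180 and 174. Leaving out exon 4 KO replicate 1, exon 4 rescue replicate 2 or exon 6 rescue replicate 1 left 1, leaving out exon 6 rescue replicate 2 left 2 and exon 4 KO replicate 2 left 4, whereas 11 were called without exon 4 rescue replicate 1. Over the 8 fits, the log2 change of *Hist2h3c2* ran from 1.69 to 2.33 and its adjusted p from 0.0012 to 0.170, and the number of all genes called higher from 174 to 265. With technical library 3 alone as exon 6 replicate 2, 1 member was called, with library 2 alone 7 were, including all 6, and with the log2 rescaling factor as a covariate 0 were (11 higher at an unadjusted p under 0.05), settings chosen after seeing the data. The same 6 were called with quantile normalization, with either other pseudocount and with a minimum of 1 RPKM, whereas 1 member was called with no minimum level and 0 with no clone covariate (11 higher at an unadjusted p under 0.05). With technical libraries entered singly, 6 were called, without *Hist1h2ai* (adjusted p = 0.396) and with *Hist1h3c*. With the RPKM as deposited, 22 were called, among 875 of 16349 genes called higher, but the median of all genes then moved to 0.64. Relative to the median of all genes, the members' median was 0.39 with rescaling, 0.47 as deposited, 0.40 with quantile normalization and 0.23 with the covariate.

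**Figure D3:**
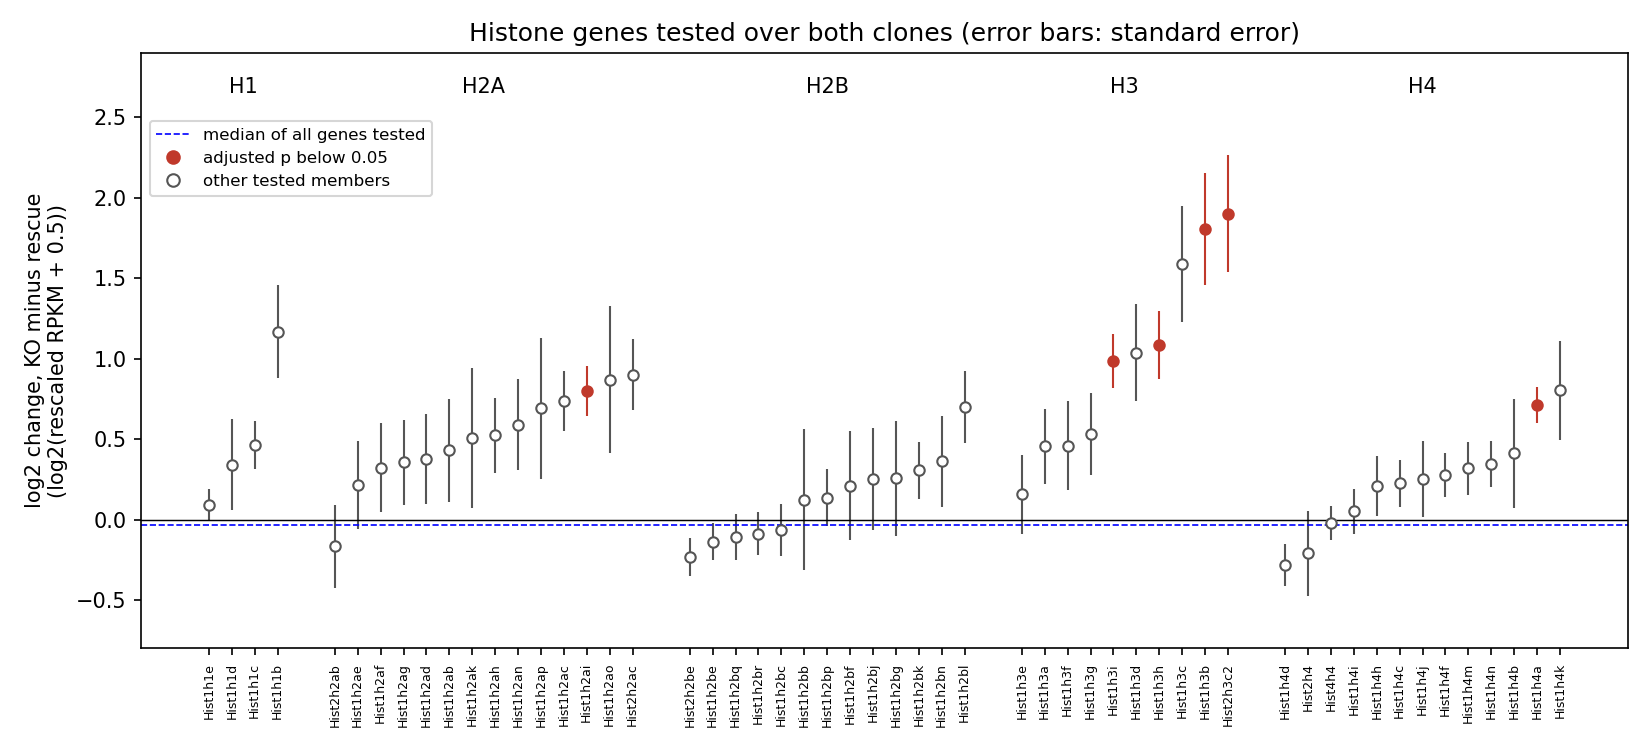
Log2 change of KO minus rescue over both clones, with its standard error, for the 54 tested histone genes by class. Red points are the 6 called members and the dashed line is the median of all genes, −0.03. Most points lie above it, and those of H3 reach highest.

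H3 genes code for the core histone whose tail carries many of the known chromatin marks, and 4 of the 10 tested H3 genes rose. Summed H3 transcripts were 26.7 and 22.6 RPKM in exon 4 KO, 18.9 and 7.00 RPKM in exon 4 rescue, 47.7, 55.7 and 62.1 RPKM in exon 6 KO, and 16.6, 13.3 and 31.4 RPKM in exon 6 rescue. They came to 39.0 ± 17.2 RPKM in KO and 16.2 ± 6.58 RPKM in rescue (SD, n = 4 replicates), with ratios of 1.41 and 3.24 in the pairs of exon 4 and 2.87 and 2.63 in those of exon 6. Within exon 6 replicate 2 the ratio was 4.17 in library 2 and 1.98 in library 3. For the 10 genes, the median change in log2 was 1.01, between 0.88 and 1.21 when a replicate was left out, and relative to all genes 1.05 with rescaling, 1.12 as deposited and 0.78 with the covariate.

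*Hist2h3c2*, an H3 gene of the Hist2 cluster at 96238108 to 96239127 on the minus strand of chromosome 3, had the largest log2 change of the members tested. It was measured at 4.35 and 2.43 RPKM in exon 4 KO, 2.02 and 0.333 RPKM in exon 4 rescue, 9.99, 9.70 and 10.8 RPKM in exon 6 KO, and 1.27, 1.01 and 2.45 RPKM in exon 6 rescue. Its averages were 6.76 ± 3.97 RPKM in KO and 1.34 ± 0.738 RPKM in rescue (SD, n = 4). The replicates of KO and rescue did not overlap, but the libraries did. Library 3 of exon 6 rescue (2.445 RPKM) lay just above library 2 of exon 4 KO (2.434 RPKM). The log2 change was 1.90 (SE 0.36, limma adjusted p = 0.0398, higher in 4 of 4 pairs) and 1.25 with the log2 rescaling factor as a covariate. Levels were highest in the exon 6 KO libraries.

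*Hist1h3b*, at 23752267 to 23752886 on the plus strand of chromosome 13, followed a similar order. It was measured at 4.17 and 2.83 RPKM in exon 4 KO, 1.95 and 0.522 RPKM in exon 4 rescue, 7.32, 8.55 and 9.87 RPKM in exon 6 KO, and 0.750, 1.26 and 2.77 RPKM in exon 6 rescue. Replicates of KO (5.88 ± 2.91 RPKM) and rescue (1.31 ± 0.785 RPKM, SD, n = 4) did not overlap. A log2 change of 1.81 was found (SE 0.35, limma adjusted p = 0.0416, higher in 4 of 4 pairs).

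*Hist1h3h* and *Hist1h3i*, which lie at 21717659 to 21718069 (plus strand) and 21782960 to 21783370 (minus strand) of chromosome 13 in the part of Hist1 with the lower coordinates, overlapped between groups. *Hist1h3h* was measured at 4.02 and 3.10 RPKM in exon 4 KO, 2.32 and 1.09 RPKM in exon 4 rescue, 7.76, 9.94 and 10.5 RPKM in exon 6 KO, and 2.82, 2.12 and 6.45 RPKM in exon 6 rescue. The change in log2 was 1.08 (SE 0.21, limma adjusted p = 0.0429, higher in 4 of 4 pairs). The technical libraries of its exon 6 rescue replicate differed, at 2.12 and 6.45 RPKM, by more than the exon 4 groups did.

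*Hist1h3i* was measured at 4.31 and 3.01 RPKM in exon 4 KO, 2.47 and 1.69 RPKM in exon 4 rescue, 7.92, 9.06 and 8.87 RPKM in exon 6 KO, and 3.13, 2.08 and 4.32 RPKM in exon 6 rescue. The log2 change was 0.99 (SE 0.17, limma adjusted p = 0.0234, higher in 4 of 4 pairs). Of the called H3 genes it was the one also called within the exon 6 clone together with *Hist2h3c2*. The smallest log2 change in H3 was that of *Hist1h3e*, 0.16 (SE 0.25, adjusted p = 0.905), which lay at 3.31 ± 0.644 RPKM in KO and 3.10 ± 1.28 RPKM in rescue (SD, n = 4) and turned to −0.01 with the covariate.

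**Figure D4:**
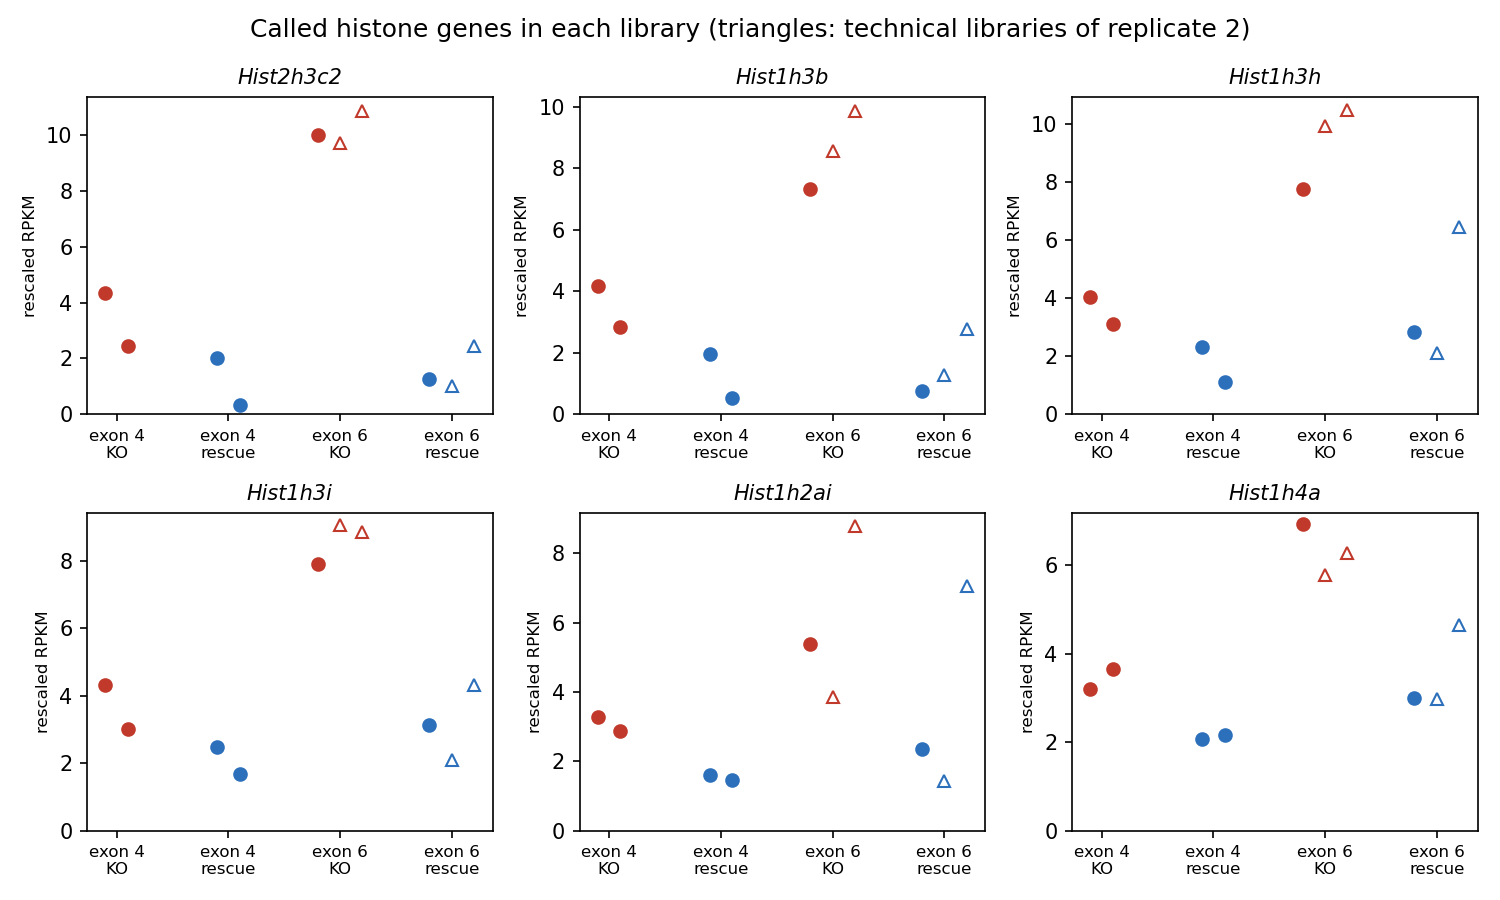
Rescaled RPKM of the 6 called histone genes in each library, KO in red and rescue in blue, with open triangles for technical libraries 2 and 3 of exon 6 replicate 2. For *Hist2h3c2* and *Hist1h3b* the highest points are the exon 6 KO libraries, 7.32 RPKM or above.

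H2A genes code for the core histone that pairs with H2B, and 1 of the 14 tested, *Hist1h2ai*, rose. It was measured at 3.28 and 2.88 RPKM in exon 4 KO, 1.60 and 1.47 RPKM in exon 4 rescue, 5.39, 3.86 and 8.80 RPKM in exon 6 KO, and 2.36, 1.42 and 7.05 RPKM in exon 6 rescue. Replicates of the groups overlapped, and library 3 of exon 6 rescue lay above 4 of the 5 KO libraries. Its log2 change was 0.80 (SE 0.15, limma adjusted p = 0.0423, higher in 4 of 4 pairs), and it lies at 21716422 to 21716814 on the plus strand of chromosome 13, beside *Hist1h3h*.

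*Hist2h2ac* had the largest log2 change in H2A without being called, 0.90 (SE 0.22, limma adjusted p = 0.123), and was called with the replicate number as a block (adjusted p = 0.0082). It was called in 3 of 21 alternatives, over which its log2 change ran from 0.39 to 1.57. It lay at 2.80 ± 1.29 RPKM in KO and 1.33 ± 0.823 RPKM in rescue (SD, n = 4). Its neighbour *Hist2h2ab* had the lowest value, −0.16 (adjusted p = 0.905), which was 0.21 with the RPKM as deposited. *Hist1h2ac*, chosen after its values were seen, had 0.74 (SE 0.19, limma adjusted p = 0.141, higher in 4 of 4 pairs). Its replicates did not overlap between groups, but its libraries did. Library 3 of exon 6 rescue lay at 2.00 RPKM (library 2 at 0.622 RPKM). This was above the exon 4 KO libraries (1.61 and 1.38 RPKM) and exon 6 KO library 1 (1.73 RPKM). *Hist1h2ac* was called with the block (adjusted p = 0.0448), so that 3 of 14 H2A genes were called with it, where 276 of 16866 genes were called higher. Over the 14 genes the median was 0.52, but 0.32 without exon 6 KO replicate 2 and 0.33 without exon 6 rescue replicate 1. Summed H2A transcripts were 23.0 ± 13.2 RPKM in KO and 12.4 ± 4.88 RPKM in rescue, higher in 3 of 4 pairs.

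H4 genes code for the core histone that pairs with H3, and 1 of the 13 tested, *Hist1h4a*, rose. It was measured at 3.19 and 3.66 RPKM in exon 4 KO, 2.08 and 2.15 RPKM in exon 4 rescue, 6.94, 5.77 and 6.28 RPKM in exon 6 KO, and 3.00, 2.98 and 4.64 RPKM in exon 6 rescue. Within each clone every KO library lay above every rescue library. Its log2 change was 0.71 (SE 0.11, limma adjusted p = 0.0131, higher in 4 of 4 pairs), and it was called in 16 of 21 alternatives, more than any other member. It lies at 23760692 to 23761230 on the minus strand of chromosome 13.

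The most abundant histone gene, *Hist1h4d*, went the other way without being called. It was measured at 23.4 and 23.9 RPKM in exon 4 KO, 24.5 and 24.3 RPKM in exon 4 rescue, 26.8, 24.8 and 31.7 RPKM in exon 6 KO, and 43.6, 25.5 and 46.8 RPKM in exon 6 rescue. Its log2 change was −0.28 (SE 0.13, limma adjusted p = 0.597, lower in KO in 4 of 4 pairs) and 0.67 with the RPKM as deposited, close to the median of all genes there, 0.64. The largest value in H4 was that of *Hist1h4k*, 0.80 (SE 0.31, adjusted p = 0.463), which was called with the replicate block (adjusted p = 0.0240). *Hist1h4k* was called in 2 of 21 alternatives, over which its log2 change ran from 0.24 to 1.76. The median of the 13 genes was 0.25, but 0.14 without exon 4 rescue replicate 2 and 0.11 with the covariate. Summed H4 transcripts were 86.4 ± 13.1 RPKM in KO and 80.1 ± 18.0 RPKM in rescue (SD, n = 4), a difference smaller than the spread of replicates. This sum was higher in KO in 3 of 4 pairs.

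H1 genes code for linker histones, and by limma 0 of the 4 tested were called (2 higher and 0 lower at an unadjusted p under 0.05). *Hist1h1b* was measured at 0.750 and 0.756 RPKM in exon 4 KO, 0.577 and 0.0783 RPKM in exon 4 rescue and 1.19, 1.97 and 3.15 RPKM in exon 6 KO. In exon 6 rescue it was measured at 0.146 RPKM, listed at 0, and measured at 0.580 RPKM. Its replicates did not overlap between groups, and its log2 change was 1.17 (SE 0.29, limma adjusted p = 0.129). The most abundant, *Hist1h1e*, lay at 11.3 ± 2.47 RPKM in KO and 10.6 ± 2.46 RPKM in rescue (SD, n = 4), with a log2 change of 0.09. Summed H1 transcripts were 24.2 ± 5.54 RPKM in KO and 19.2 ± 4.27 RPKM in rescue, higher in 4 of 4 pairs.

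H2B genes had a median of 0.14, the smallest of the classes except without exon 4 rescue replicate 1 (0.38, H4 0.33) or exon 4 KO replicate 2 (0.32, H4 0.30), and by limma 0 of the 13 tested were called (1 higher and 0 lower at an unadjusted p under 0.05). Their median was −0.16 with the covariate, −0.04 without exon 6 KO replicate 2 and −0.01 without exon 6 rescue replicate 1. It was 0.04 without exon 4 KO replicate 1, 0.05 without exon 4 rescue replicate 2 and 0.06 without exon 6 rescue replicate 2. Values ran from −0.23 for *Hist2h2be* (0.06 with the RPKM as deposited) to 0.70 for *Hist1h2bl* (adjusted p = 0.311). The most abundant, *Hist1h2bg*, lay at 3.73 ± 1.66 RPKM in KO and 2.93 ± 1.16 RPKM in rescue (SD, n = 4), with a log2 change of 0.26 (SE 0.36) that was −0.29 with the covariate. Summed H2B transcripts were 14.3 ± 6.07 RPKM in KO and 11.4 ± 3.22 RPKM in rescue, higher in 2 of 4 pairs.

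By cluster, 5 of 48 tested Hist1 genes and 1 of 5 tested Hist2 genes were called, and 0 of 1 in Hist4 (0 at an unadjusted p under 0.05 by limma). Summed levels were 172 ± 49.8 RPKM in KO and 130 ± 30.2 RPKM in rescue for Hist1 and 13.5 ± 4.52 RPKM and 7.53 ± 2.88 RPKM for Hist2 (SD, n = 4). Both sums were higher in KO in 4 of 4 pairs, but in Hist2 most of the difference was that of *Hist2h3c2* (6.76 and 1.34 RPKM), and 2 of its 5 tested genes had a positive log2 change (median −0.16). *Hist4h4* lay at 1.51 ± 0.212 RPKM in KO and 1.54 ± 0.269 RPKM in rescue, with a log2 change of −0.02 that was 0.76 with the RPKM as deposited. Hist3 transcripts summed to 0.121 RPKM or less in each replicate, with *Hist3h2a* the highest, and neither gene was tested. The testis forms were at or near 0, with *Hist1h2aa* listed at 0 throughout, *Hist1h1t* above 0 in 2 of 10 libraries at up to 0.0614 RPKM, and *Hist1h2ba* at up to 0.105 RPKM.

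The clones were also compared. In the exon 6 clone, 4 of the 54 members tested rose (background 1.24% of 15301 genes) and 0 fell (background 0.0654%), with 30 higher and 3 lower at an unadjusted p under 0.05 by limma, against 1119 and 692 of all genes. The called members were *Hist2h3c2* with a log2 change of 2.42 (adjusted p = 0.0104), *Hist1h3i* with 1.28 (0.0160), *Hist1h2ak* with 1.10 (0.0455) and *Hist2h2ac* with 0.81 (0.0471), the last not called with the replicate block (0.0763). With the block 11 members were called in this clone, where 142 of 15301 genes were called higher, among them *Hist1h3b* (0.0296), *Hist1h3h* (0.0323) and *Hist1h1b* (0.0423), and with the RPKM as deposited 47 were, where 10040 of 16361 genes were called higher and the median of all genes was 0.69. Leaving out exon 6 KO replicate 1, exon 6 KO replicate 2 or exon 6 rescue replicate 1 left 0 called (28, 21 and 18 higher at an unadjusted p under 0.05), where 0 of all genes were called in either direction, so that these fits do not single out the members, and 3 were called without exon 6 rescue replicate 2.

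In the exon 4 clone limma called 0 of the 54 members (9 higher and 0 lower at an unadjusted p under 0.05, against 426 and 342 of all genes), where the background was also 0% of 18751 genes in each direction. The lowest adjusted p was 0.581. For the members, the median log2 changes were 0.74 (exon 6) and 0.12 (exon 4), where all genes had 0.00 and −0.08. Leaving out a replicate gave 0.48 (without exon 6 rescue replicate 1) to 0.96 (without exon 6 rescue replicate 2) in exon 6. In exon 4 it gave −0.06 without exon 4 rescue replicate 2, 0.44 without exon 4 rescue replicate 1 and 0.22 without exon 4 KO replicate 2, so that its sign rested on 1 replicate. By class they were 1.26 and 0.81 for H3, 0.92 and 0.04 for H2A, 0.52 and 0.29 for H1, 0.36 and −0.15 for H2B and 0.24 and 0.16 for H4. The difference between the clones was tested, and limma called 0 members, with 6 larger and 1 smaller in exon 6 at an unadjusted p under 0.05, and 0% of 16866 genes (434 larger and 251 smaller). A difference between the clones was thus not shown for any member.

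**Figure D5:**
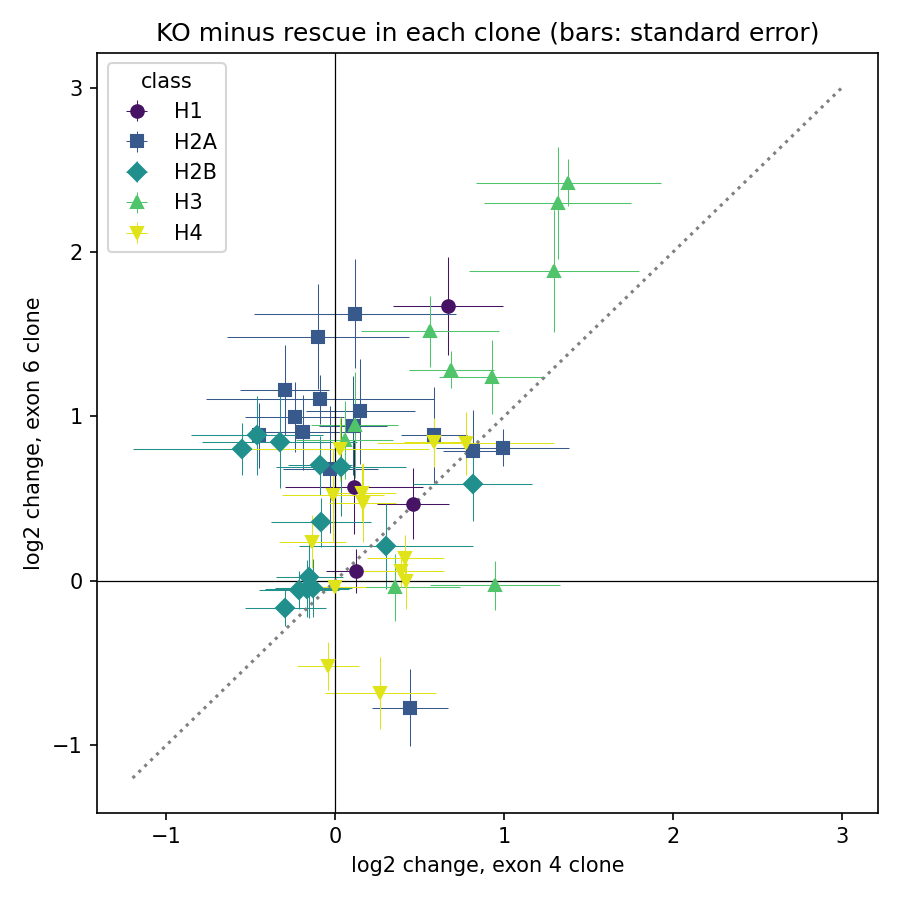
Log2 change of KO minus rescue in the exon 6 clone against that in the exon 4 clone, with standard errors, for the 54 tested histone genes by class. The dotted line marks equal change. Median values of H3 were 1.26 and 0.81, and those of H2A were 0.92 and 0.04.

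Genes that work with the histone genes were described from gene lists. Over both clones, 1.61% of all genes were called higher, and 854 of 16866 were higher at an unadjusted p under 0.05 by limma. Of 19 tested factors that make, process or degrade histone mRNA, 1 rose and 0 fell, with a median log2 change of 0.03. At an unadjusted p under 0.05 by limma, 4 factors were higher and 0 lower. The called factor was *Eri1*, the exonuclease that trims histone mRNA ends, at 1.91 ± 0.302 RPKM in KO and 1.03 ± 0.178 RPKM in rescue (SD, n = 4). Its log2 change was 0.65 (SE 0.12, limma adjusted p = 0.0288), and it was not called with the replicate block (adjusted p = 0.0512). *Eri1* was called in 9 of 21 alternatives, with a limma adjusted p of up to 0.143 when a replicate was left out. *Npat*, the coactivator of histone gene transcription, had a log2 change of 0.14 (adjusted p = 0.873). *Slbp* had 0.03 (adjusted p = 0.966), at 0.302 ± 0.0452 RPKM in KO and 0.296 ± 0.171 RPKM in rescue.

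Replacement histones, which are known to be made outside S phase, mostly kept to small values, and 2 of 10 tested rose (3 higher at an unadjusted p under 0.05 by limma). The 2 called were *Cenpa*, the H3 of centromeres, with a log2 change of 0.87 (SE 0.15, adjusted p = 0.0191), and *H2afz*, which codes for H2A.Z, with 0.86 (SE 0.17, adjusted p = 0.0410). The median was 0.06. Of 15 S phase enzymes, 7 rose and 0 fell, against 1.61% of all genes called higher (11 enzymes higher at an unadjusted p under 0.05 by limma). All 15 log2 changes were positive, and the median was 0.75. The largest were those of the helicase subunits *Mcm5*, 1.99 (adjusted p = 0.000373), and *Mcm3*, 1.17 (adjusted p = 0.0021), the polymerase *Pole*, 0.92 (adjusted p = 0.0029), and the reductase *Rrm1*, 0.91 (adjusted p = 0.0159). Within the exon 6 clone 1.24% of all genes were called higher. There, 0 factors of histone mRNA, 2 replacement histones and 4 S phase enzymes rose (4, 3 and 12 higher at an unadjusted p under 0.05 by limma). With the replicate block these counts were 0, 1 and 3, without *H2afz* (adjusted p = 0.0531) and *Pole* (0.0557). Within the exon 4 clone, limma called 0 in each list (1, 3 and 7 higher at an unadjusted p under 0.05).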

How the data were processed

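The RPKM per gene deposited by the authors were used, which their methods derive from reads trimmed with cutadapt, mapped with segemehl to mm10 and counted with rnacounter on GENCODE vM5. Of the 45232 entries, 44585 had an identifier in M21. Libraries were rescaled by the median of ratios over the 8523 genes that averaged 1 RPKM or more and were above 0 in each library. Differences were fitted with limma 3.58.1 (R 4.3.3, with a trend) on log2(rescaled RPKM + 0.5), for genes that averaged 0.1 RPKM or more, with the clone as a covariate, and adjusted p-values are those of Benjamini and Hochberg over all genes tested. Python 3.11.15 with pandas 2.3.3 was used for the rest. The fit was tested on simulated data, but no outcome of that is given here, so no call rests on it.

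Pairs are KO and rescue of the same clone and replicate number, and the labels do not say that they were grown together. Deviations from the group mean correlated across 7550 genes at 0.477 (exon 4) and 0.360 (exon 6) (genes are not independent replicates). A fit with clone and replicate number as a block was among the alternatives.

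The members and gene lists were chosen with earlier results of these data known. Genes named are those called over both clones, the highest member and those with the largest log2 change in each direction per class, the highest member per cluster, the testis forms, *Npat*, *Slbp* and any called histone mRNA factor, and *Lin37*. Other named genes were chosen after their values were seen. The authors' own test on counts was not repeated.

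The alternatives were pseudocounts of 0.1 and 1, no minimum level and a minimum of 1 RPKM, unscaled values (RPKM as deposited) and quantile normalization. They also included technical libraries entered singly, a fit with no clone covariate, a replicate block, a fit lacking the trend, and omission of 1 replicate at a time. Using only the first or only the second technical library, and the log2 rescaling factor as a covariate, were chosen after seeing the data.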

Additional observations from a re-analysis of the deposited data

Results flagged for a closer look

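In 5 of the 60 groups of 4 replicates that were tested, 1 replicate lay far from the others by Dixon's test, where chance alone marks about 1 group in 20. Among KO replicates, *Hist1h3e* was 4.28 RPKM in exon 6 replicate 2 (others 2.92 to 3.04 RPKM), *Hist1h1t* was 0.0614 RPKM in exon 4 replicate 2 (others listed at 0), *Slbp* was 0.234 RPKM in exon 6 replicate 2 (others 0.317 to 0.330 RPKM) and *Lin37* was 0.417 RPKM in exon 6 replicate 1 (others 0.274 to 0.285 RPKM). Among rescue replicates, *Hist1h1t* was 0.0142 RPKM in exon 6 replicate 2 (others listed at 0). For *Hist1h1t*, where the others were all at 0, any value above 0 would have been marked, so these 2 of the 5 cannot be set against the rate of chance. The causes were not tested.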

How the results depend on the processing

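Of histone genes higher in KO over both clones, 6 in the reported setting, 1 was called with no minimum level (171 of 40885 genes called higher in all), 22 with the RPKM as deposited (875 of 16349), 9 with the replicate block (276 of 16866), 0 with no clone covariate (11 higher at an unadjusted p under 0.05 by limma), 1 with the second technical library only, 7 with the first only, 0 with the log2 rescaling factor as a covariate (11 higher), and 0 to 11 when a replicate was left out. The block added *Hist1h4k* (adjusted p = 0.0240), *Hist2h2ac* (0.0082) and *Hist1h2ac* (0.0448) and lost *Eri1* (0.0512), and changed no other call of a named gene over both clones. In the exon 6 clone, where 4 were called, the counts were 0 with no minimum level (22 higher and 1 lower at an unadjusted p under 0.05, with 0 of 36276 genes called in all), 47 with the RPKM as deposited (10040 of 16361 genes), 11 with the block (142 of 15301), 2 without the trend, 2 with the first technical library only, 1 with the second only, and 0 to 3 when a replicate was left out. Counts of members lower in KO, of members called in the exon 4 clone and of differences between the clones were 0 by limma under each alternative that could be fitted. The median log2 change of the tested members, 0.35, was 1.10 with the RPKM as deposited and 0.23 to 0.57 when a replicate was left out. Signs turned with the RPKM as deposited for *Hist2h2ab* (0.21), *Hist2h2be* (0.0551), *Hist1h4d* (0.67) and *Hist4h4* (0.76), with the covariate for *Hist2h2ab* (0.10), *Hist1h2bg* (−0.29) and *Hist1h3e* (−0.0113), and with the first technical library only for *Slbp* (−0.0021). When a replicate was left out, values ran from −0.33 to 0.0912 for *Hist2h2ab*, −0.12 to 0.35 for *Hist1h3e*, −0.0705 to 0.0394 for *Hist4h4* and −0.0678 to 0.14 for *Slbp*. The cause was not tested, except that the deposited scale moves the median of all genes to 0.64. Within a clone, leaving out a replicate leaves 1 sample in an arm, which is assumed to vary like the others. Technical libraries as separate libraries do not concern the exon 4 clone, and the covariate was not run within a clone. Depth limits are unknown without counts.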
